A study of Mus musculus with 27 samples.

Results

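The Hox genes of the mouse were examined across pluripotent states and in the chromatin of formative pluripotent stem cells (fPSCs), a state held between the naive and the primed one. Every row of the expression table whose symbol is Hoxa, Hoxb, Hoxc or Hoxd followed by a number was taken, which gave 39 of 23608 entries and used no measured value. RNA was sequenced in 19 libraries, with the genotype given as WT in the labels of each. Per the study, 46C cells carry a Sox1-GFP reporter, BVSC cells reporters of Blimp1 and Stella, and ROSAmTmG cells a fluorescent reporter. The groups were naive mouse embryonic stem cells (mESCs, 2 libraries, without feeder cells in N2B27 with 2i and LIF), epiblast-like cells (EpiLCs, 2 libraries, 48 h in N2B27 with KSR, Activin A and bFgf2) and primed epiblast stem cells (EpiSCs, 2 libraries, in KSR, Activin A, bFGF2 and the Wnt inhibitor XAV939). EpiSCs grew on mouse embryonic fibroblasts inactivated with Mitomycin C, so RNA of feeder cells can be in those libraries. Epiblastoids, which are mESCs grown embedded in Matrigel in the EpiLC medium, gave 1 library each on days 2, 3 and 4. fPSCs, the stabilized form kept in N2B27 with Activin A, bFgf2 and XAV939, gave 1 library at P1 and 7 long-term libraries (P10, P20, P30, CMT P11, 46C P24, BVSC P14 and ROSAmTmG P12). The labels name no line for P1, P10, P20 and P30, which per the study are passages of CMT. Thus 4 of the 7 long-term libraries come from 1 line. Lines derived from E5.5 and E6.5 epiblasts gave 1 library each at P10. H3K4me3, H3K27me3 and cytosine methylation were measured in fPSCs P10, and single fPSCs of 4 clones were sequenced.

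Hox genes encode homeodomain transcription factors that set the identity of cells along the head-to-tail axis. In mammals they lie in clusters on separate chromosomes, and their order along a cluster follows the order in which they are used in the embryo, with low paralogue numbers used early and toward the head and high numbers late and toward the tail. Before gastrulation the clusters are held silent by Polycomb complexes, which place H3K27me3, while H3K4me3, a mark of active or poised promoters, is often found at the same start sites. Promoters that carry both marks are called bivalent. Retinoic acid, Wnt signals and Cdx factors open the clusters during gastrulation, and Pbx, Meis and Pknox proteins bind DNA together with the Hox proteins.

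Hoxc12 and Hoxc13 were among the members with the highest levels in any library. For these, and for Hoxb13, the most isolated member of its cluster, the 250 bases before the annotated start site are shown, since these promoters lie under H3K27me3 in fPSCs and their methylation is given with them. The sequences are from NCBIM37 (mm9), 5′ to 3′ on the strand of the gene, with each CG dinucleotide, the site of cytosine methylation, in capitals. All 3 genes lie on the plus strand. The stretches are, in the order Hoxb13, Hoxc12 and Hoxc13, chr11:96055380-96055629, chr15:102766938-102767187 and chr15:102751284-102751533.
Hoxb13: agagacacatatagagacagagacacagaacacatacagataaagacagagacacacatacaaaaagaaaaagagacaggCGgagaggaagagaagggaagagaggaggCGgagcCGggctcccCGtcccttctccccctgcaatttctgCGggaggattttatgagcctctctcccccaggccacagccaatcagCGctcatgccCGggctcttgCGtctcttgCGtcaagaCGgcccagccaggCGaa
Hoxc12: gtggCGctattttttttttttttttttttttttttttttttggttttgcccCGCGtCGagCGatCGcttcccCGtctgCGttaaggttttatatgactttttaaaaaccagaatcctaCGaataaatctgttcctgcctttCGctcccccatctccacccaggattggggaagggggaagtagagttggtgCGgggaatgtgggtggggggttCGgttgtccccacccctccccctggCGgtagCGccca
Hoxc13: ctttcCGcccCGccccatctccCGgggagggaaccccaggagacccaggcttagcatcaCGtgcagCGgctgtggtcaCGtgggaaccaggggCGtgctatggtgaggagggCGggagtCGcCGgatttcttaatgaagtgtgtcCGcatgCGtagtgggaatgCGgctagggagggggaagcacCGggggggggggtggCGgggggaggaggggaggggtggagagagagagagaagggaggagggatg
These promoters held 11, 14 and 15 CG dinucleotides. In fPSCs P10 the 3 windows of 100 bp with a methylation value in the stretch of Hoxb13 were all at a methylated fraction of 0, as were the 2 of Hoxc13, and those of Hoxc12 ran from 0.03 to 0.1. Over the 39 members the number of CG dinucleotides in this stretch ran from 1 to 41 with a median of 13, beside a median of 8 over 22197 protein-coding promoters. At least 6 of them were present in 31 of the 39 Hox promoters and in 58.2% of all promoters.

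Levels are given in FPKM (mapped fragments scaled by the authors for transcript length and for the size of the library), so they can be set side by side between genes. Read counts are not part of the table, and depth is therefore unknown. Between 10034 and 10933 genes reached 1 FPKM per library. The labels were in keeping with known markers: 5 naive markers (Zfp42, Esrrb, Tfcp2l1, Klf4 and Nr0b1) summed to 675 and 843 FPKM in mESCs and to at most 19.01 elsewhere, and Fgf5 was at 0.0191 and 0.0558 FPKM in mESCs and at 72.9 FPKM or more in long-term fPSCs. Markers of fibroblasts stood apart in EpiSCs, where the 20 markers summed to 283 and 382 FPKM with 15 and 16 of them at 1 FPKM or more, beside sums from 2.45 to 25.2 FPKM in the other 17 libraries. Col1a1 was at 111 and 153 FPKM in EpiSCs. Lum (0.590 and 0.501 FPKM) and Postn (0.274 and 0.798) were below 1 FPKM in EpiSCs but higher there than in any other library, and Fap and Tnfrsf11b were at 0.0241 FPKM or below in EpiSCs. Dcn was at 2.82 and 1.88 FPKM in EpiSCs and at 4.48 and 6.10 in EpiLCs. The part of feeder cells in the EpiSC values below was not tested. The labels do not say that libraries of a group came from separate cultures, so p-values measure the spread between libraries, which may be technical. In bulk RNA, fewer cells that express a gene and less RNA per cell cannot be told apart.

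Hox RNA was low in every state, and it was highest in naive mESCs. The summed level of the 39 genes was 35.9 and 23.2 FPKM in mESCs, 10.1 and 13.9 in EpiSCs and 3.91 and 2.103 in EpiLCs. It was 2.21, 0.694 and 1.20 FPKM in Epiblastoids on days 2, 3 and 4, 1.08 in fPSCs P1, from 0.334 to 1.11 with a median of 0.887 in the 7 long-term fPSC libraries, and 0.336 and 1.08 in the lines from E5.5 and E6.5 epiblasts. The mESC sums lay above all others, and both EpiSC sums lay above those of every EpiLC, Epiblastoid and fPSC library. At its highest the sum was 0.00911% of all FPKM of a library. Of the 39 genes, 12 reached 1 FPKM in at least 1 library, and 27 stayed below it in all 19, with 0.990 FPKM as their highest value.

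**Figure D1:**
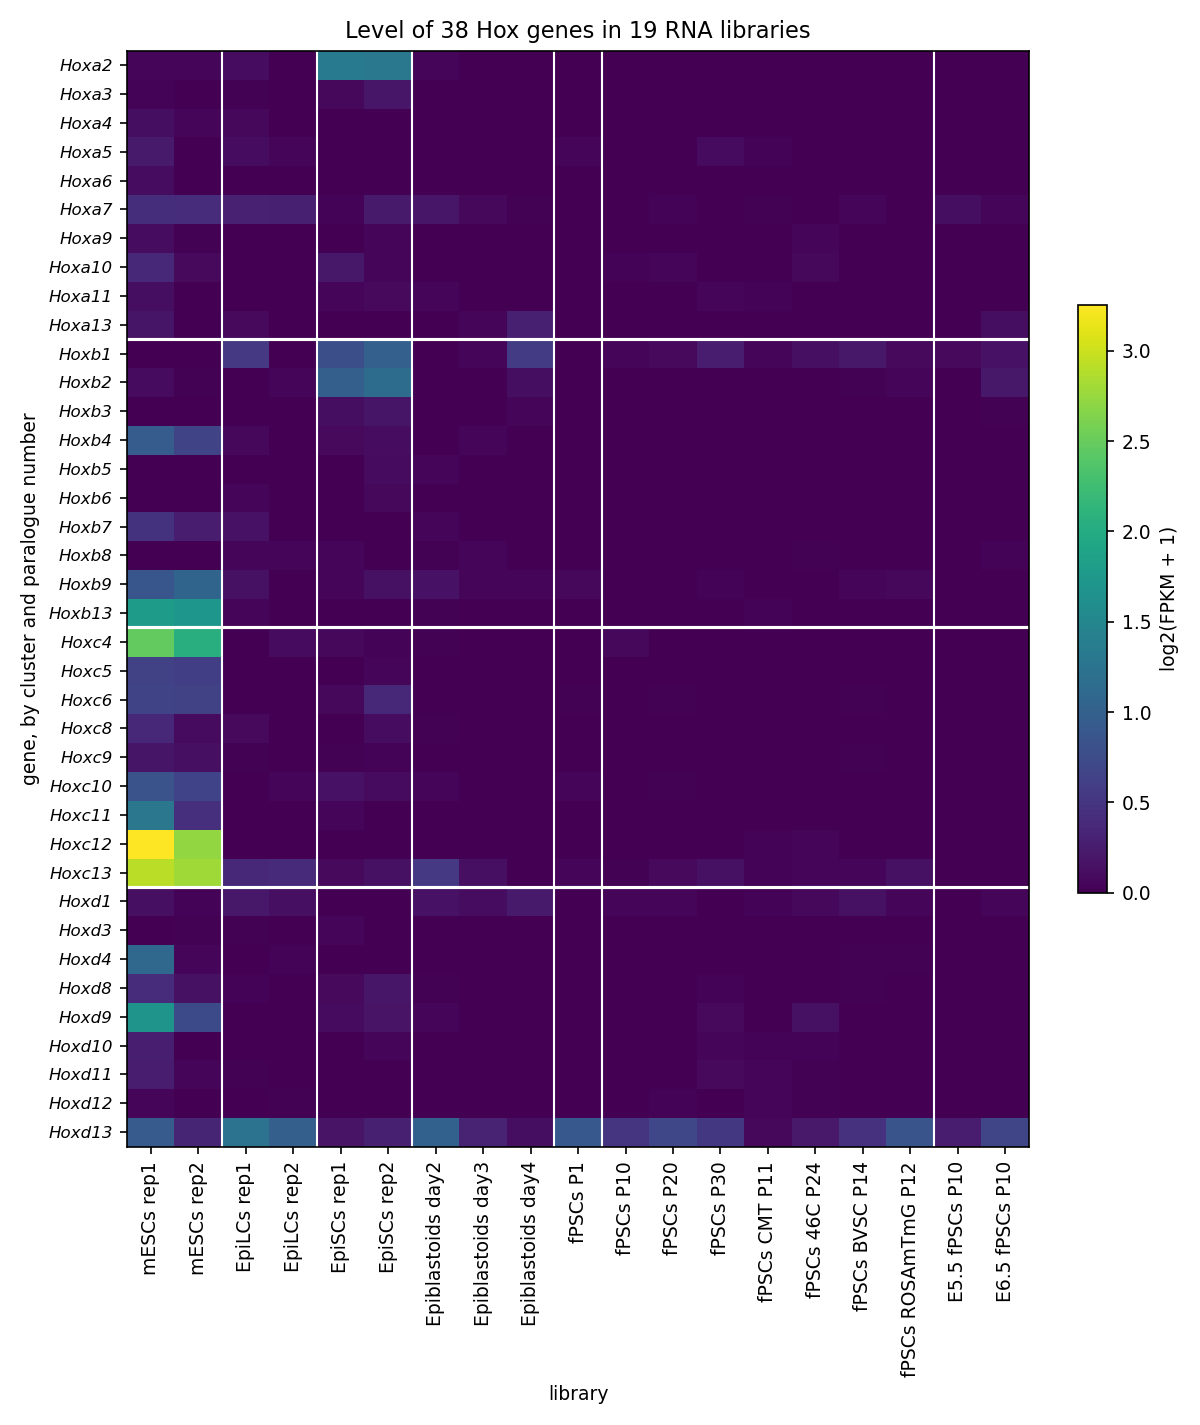
Level of 38 of the 39 Hox genes (rows, by cluster and paralogue number) in each of the 19 RNA libraries (columns), as log2(FPKM + 1) by colour. HoxC genes and Hoxb13 stand out in the 2 mESC libraries, Hoxa2, Hoxb1 and Hoxb2 in the 2 EpiSC libraries, and Hoxd13 was the member above 0 in all 10 fPSC libraries.

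The Hox RNA of mESCs came mainly from the HoxC cluster, with Hoxc12 and Hoxc13 as the highest members. In the HoxA cluster, paralogues 9 to 13 were at 0.280 FPKM or below in mESCs. Over all clusters, paralogues 9 to 13, used last and most posteriorly in the embryo, held 69.4% and 73.3% of the summed level in mESCs. The 9 HoxC genes held 65.5% and 72.6%. Hoxc12 was at 8.55 and 5.59 FPKM in mESCs, was listed at 0 in 15 of the other 17 libraries, and reached 0.0361 FPKM at most in the rest. Hoxc13, which acts in hair and nail, was at 6.59 and 5.95 FPKM in mESCs and at 0.456 FPKM at most elsewhere. Hoxc4, from the opposite end of the same cluster, was at 4.58 and 3.11 FPKM in mESCs and at 0.0731 or below elsewhere. Hoxb13, known for its role in the tail bud and prostate, was at 2.45 and 2.28 FPKM in mESCs and at 0.0328 or below elsewhere. For none of these 4 genes did mESCs and the other libraries overlap.

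Members at a lower level followed, with more spread between the 2 mESC libraries. Hoxd9 was at 2.21 and 0.666 FPKM, Hoxc11 at 1.44 and 0.362, Hoxd4 at 1.15 and 0.0333, and Hoxb9, which patterns the thorax, at 0.834 and 1.07. In the other 17 libraries Hoxd9 reached 0.127 FPKM, Hoxc11 0.0371, Hoxd4 0.0240 and Hoxb9 0.114. The mESC library of replicate 1 was the higher for Hoxd9, Hoxc11 and Hoxd4, and Hoxd4 rested on it. The annotated spans of Hoxd4 and Hoxd3 overlap, so the split of reads between them is uncertain. In all, 15 of the 39 members were higher in both mESC libraries than in any of the other 17 libraries, while 11.1% of all 23604 genes used had that pattern. They were 8 of the 9 HoxC genes, 0 of the 8 members of paralogues 1 to 3, 7 of 15 members of paralogues 4 to 8 and 8 of 16 members of paralogues 9 to 13. Of these, Hoxa7, Hoxb4, Hoxb7, Hoxc5, Hoxc6, Hoxc9 and Hoxc10 stayed below 1 FPKM in both mESC libraries, with Hoxc9 at 0.139 and 0.0992 FPKM.

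**Figure D2:**
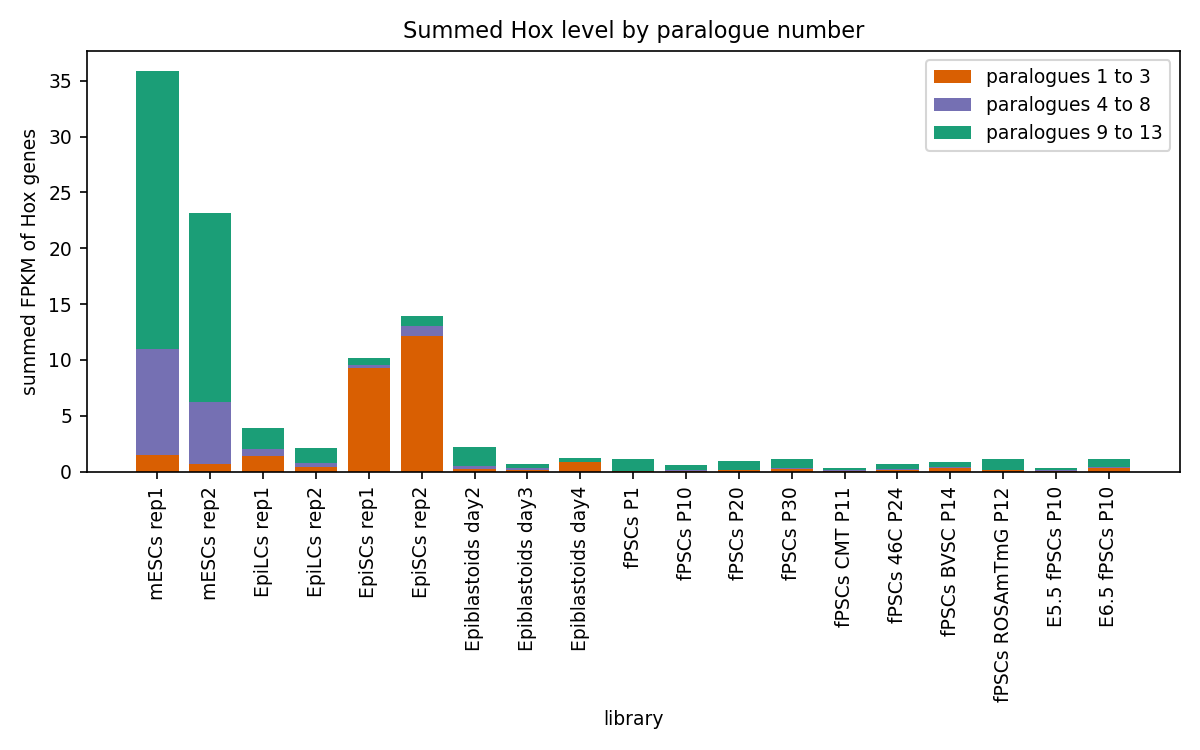
Summed FPKM of the Hox genes in each of the 19 libraries, split by paralogue number and drawn from 0. The 2 mESC libraries are made up mostly of paralogues 9 to 13 and the 2 EpiSC libraries mostly of paralogues 1 to 3, and all fPSC libraries stay at 1.11 FPKM or below.

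In EpiSCs the low-numbered paralogues held most of the summed level instead. Paralogues 1 to 3, used early and in the hindbrain, held 91.0% and 87.1% of the summed Hox level in EpiSCs, against 4.14% and 2.87% in mESCs, and paralogues 9 to 13 held 6.35% and 6.03%. Hoxa2, which patterns the pharyngeal arches, was at 1.51 and 1.46 FPKM in EpiSCs and at 0.0818 or below elsewhere. Hoxb2 was at 0.982 and 1.21 FPKM in EpiSCs and at 0.155 or below elsewhere. The groups did not overlap for either gene. Hoxb1, chosen after its values were seen because it lies next to Hoxb2, was at 0.722 and 0.990 FPKM in EpiSCs, 0.496 in Epiblastoids on day 4 and 0.460 in 1 of the EpiLC libraries.

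Hoxa2, Hoxa3, Hoxb1, Hoxb2 and Hoxb3 were among the members that were higher in both EpiSC libraries than in the other 17 libraries, a pattern that 9.65% of all genes used had and that no member of paralogues 4 to 13 had. Of these, Hoxa3 and Hoxb3 stayed at 0.148 FPKM or below. Hoxd1 and Hoxd3 did not have this pattern: Hoxd1 was listed at 0 in both EpiSC libraries, and Hoxd3 was at 0.0279 FPKM and 0. The fibroblast markers, at 283 and 382 FPKM, were also highest in these 2 libraries.

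The differences were tested with limma on log2(FPKM + 1), on which changes of weakly expressed genes come out too small. The long-term fPSC libraries, mESCs, EpiLCs and EpiSCs shared 1 model. A minimum of 1 FPKM in 2 or more of its libraries left 12513 genes, and 6 Hox genes were among them, with Hoxa2, Hoxb13, Hoxc4, Hoxc12 and Hoxc13 described here. The threshold for a call was an adjusted p (Benjamini-Hochberg) below 0.05 together with a change of 1.5-fold or more. Since these 6 entered through the group in which they are high, their count says little about the family. Between EpiSCs and mESCs, 2 of the 6 rose and 4 fell, where 23.1% and 24.7% of all genes tested rose and fell. Hoxa2 rose by 1.27 on the log2 scale (SE 0.0799, adjusted p = 4.98e-08), and the annotated span of Hoxa2 overlaps that of Hoxa3 by 2055 bp. Of the 15 fibroblast markers that entered, 15 rose as well. Many of them, Col1a1 and Cd248 among them, entered through the EpiSC libraries alone, so this count says little too. Hoxc13 fell by 2.74 (SE 0.102, adjusted p = 3.47e-10) and Hoxc4 fell by 2.21 (SE 0.124, adjusted p = 1.61e-08). Hoxc12 (adjusted p = 2.54e-09) and Hoxb13 (adjusted p = 2.51e-09) were past the threshold, with both EpiSC libraries listed at 0. The spread behind these p-values is shared with the long-term fPSC libraries. With only EpiSCs and mESCs fitted, the adjusted p of limma was 1.58e-04 for Hoxb13, 1.23e-04 for Hoxc12, 7.10e-05 for Hoxc13 and 3.87e-04 for Hoxa2.

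Without mESCs replicate 1, and likewise without mESCs replicate 2, only 2 members, Hoxa2 among them, entered the fit, and both were called, since a member that is high in mESCs alone then fails the filter on low values. Without either EpiSC library Hoxa2 failed the filter, and 5 members were called. When the filter was left off, 14 of 39 Hox genes were past the threshold between EpiSCs and mESCs. These were 4 that rose, Hoxa2, Hoxb1 and Hoxb2 among them, and 10 that fell, where 11.9% and 12.4% of 23604 genes rose and fell.

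EpiLCs, after 48 h out of the naive medium, held neither the mESC-high members nor those of EpiSCs at their levels. Of the 6 members tested against mESCs, 4 fell (Hoxb13, Hoxc4, Hoxc12 and Hoxc13), where 17.4% of all genes tested fell and 12.2% rose. These 4 entered the fit through the mESC libraries alone, so their count says little about the family. Hoxc13 was still at 0.280 and 0.323 FPKM in EpiLCs and fell by 2.48 on the log2 scale (SE 0.102, adjusted p = 2.18e-09). Hoxc4 fell by 2.21 (SE 0.124, adjusted p = 3.70e-08) and Hoxb13 fell by 1.73 (SE 0.0809, adjusted p = 6.17e-09). Hoxc12 was past the threshold with both EpiLC libraries listed at 0 (adjusted p = 5.84e-09). With only EpiLCs and mESCs fitted, the adjusted p of limma was 0.00111 for Hoxb13 and 5.78e-04 for Hoxc13. Hoxa2 (0.01, SE 0.0799, adjusted p = 0.942) did not pass. Without mESCs replicate 1 neither of the 2 members that still entered was called by limma (Hoxa2 0.02, adjusted p = 0.941), and without mESCs replicate 2 the count was 1. With no filter on low values 11 of 39 fell, where 9.07% of all genes did and 6.06% rose.

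The member with the highest level in EpiLCs was Hoxd13, the last gene of its cluster, which patterns digits and the genital bud. It was at 1.36 and 0.979 FPKM in EpiLCs, 0.909 and 0.268 in mESCs, 0.122 and 0.219 in EpiSCs, 1.02 in Epiblastoids on day 2, 0.247 on day 3 and 0.0888 on day 4. In fPSCs P1 it was at 0.868 FPKM, in the 7 long-term libraries from 0.0457 to 0.797 with a median of 0.408, and in the lines from E5.5 and E6.5 epiblasts at 0.187 and 0.596. It reached 1 FPKM in 1 of the libraries that entered the fit, so it was not tested. Both EpiLC values lay above those of mESCs and of all fPSC libraries, and both mESC values lay above those of EpiSCs. The values of long-term fPSCs overlapped those of mESCs and those of EpiSCs.

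Long-term fPSCs had neither the mESC nor the EpiSC pattern. None of the 39 members reached 1 FPKM in any of the 10 fPSC libraries, and 9 were listed at 0 in all 10. Hoxd13 was the member above 0 in all 10, and Hoxb1 (0.0323 to 0.201 FPKM) and Hoxc13 (0.0135 to 0.109) were above 0 in all 7 long-term libraries. Of the 6 members tested against mESCs, 5 fell, where 23.0% of all genes tested fell and 17.3% rose. Hoxb13, Hoxc4, Hoxc12 and Hoxc13 entered the fit through the mESC libraries alone, so this count says little about the family. Hoxc13 fell by 2.79 on the log2 scale (SE 0.0819, adjusted p = 2.61e-11), Hoxc12 fell by 2.98 (SE 0.111, adjusted p = 2.47e-10), Hoxc4 fell by 2.25 (SE 0.0994, adjusted p = 1.25e-09) and Hoxb13 fell by 1.75 (SE 0.0649, adjusted p = 2.39e-10). Hoxa2 did not pass (-0.05, SE 0.0641, adjusted p = 0.596).

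Against EpiSCs, 2 of the 6 members fell, where 19% of all 12513 genes tested fell and 13.3% rose. Hoxa2, which entered the fit through the EpiSC libraries alone, was past the threshold (adjusted p = 6.68e-09) and listed at 0 in all 7 long-term libraries. Hoxb13, Hoxc4, Hoxc12 and Hoxc13 had changes between -0.05 and 0.01, with adjusted p from 0.699 to 0.973. These comparisons share the mESC, EpiSC and fPSC libraries with those above. The counts of 5 against mESCs and 2 against EpiSCs were the same with the fPSC libraries of either library protocol alone. Without either mESC library 1 member fell against mESCs, and without either EpiSC library, where Hoxa2 failed the filter, 1 member fell against EpiSCs. With no filter on low values 12 of 39 fell against mESCs, where 12.4% of all genes did and 8.14% rose, and 4 of 39 (Hoxa2, Hoxb1 and Hoxb2 among them) fell against EpiSCs, where 9.83% did and 5.02% rose.

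The summed Hox level was 0.573, 0.911 and 1.08 FPKM at P10, P20 and P30 by the total RNA protocol, and 0.334, 0.664, 0.887 and 1.11 FPKM in CMT, 46C, BVSC and ROSAmTmG by the NEBNext protocol. The ranges overlapped.

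Epiblastoids have 1 library a day, so their values describe those libraries and were not tested. On day 2 Hoxd13 (1.02 FPKM) and Hoxc13 (0.456 FPKM) were the highest, and paralogues 9 to 13 held 77.7% of the summed level. On day 4 the share of paralogues 1 to 3 was 68.8%, made up largely of Hoxb1 at 0.496 FPKM, and Hoxa13, chosen after its values were seen, was at 0.216 FPKM, its highest value in the 19 libraries. Hoxa2 was listed at 0 on day 4. All 13 genes of a list of primitive-streak genes were above 0 on day 4, and their summed level was 799 FPKM.

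Hox cofactors were expressed in all states, though not each of them. Of a list of 9, all reached 1 FPKM in both EpiSC libraries, and 4 to 6 did in each other library. The 9 genes of the Pbx, Meis and Pknox families summed to 112 and 108 FPKM in EpiSCs, 33.9 and 27.7 in mESCs, 35.7 and 38.7 in EpiLCs and between 70.2 and 84.6 in long-term fPSCs. Between EpiSCs and mESCs 6 of the 9 rose and none fell, where 23.1% and 24.7% of all genes tested rose and fell. Between long-term fPSCs and mESCs 4 rose and 2 fell (17.3% and 23.0% of all genes), and between long-term fPSCs and EpiSCs 1 rose and 4 fell (13.3% and 19% of all genes). Between EpiLCs and mESCs 2 rose and 1 fell, near the shares of 12.2% and 17.4% over all genes. The median change of the list was 1.86 on the log2 scale between EpiSCs and mESCs, where that of all genes was -0.09, and 0.43 between long-term fPSCs and mESCs, where that of all genes was -0.04. Meis1, a partner of Hox proteins on DNA, was at 4.25 and 1.81 FPKM in EpiSCs and at 0.0634 or below in mESCs, EpiLCs and long-term fPSCs, while the line from an E6.5 epiblast held 11.1 FPKM. Meis2 was at 12.7 and 5.02 FPKM in mESCs, at 9.67 and 6.57 in EpiSCs and at 0.269 or below in EpiLCs and long-term fPSCs. Pknox2 was at 16.1 and 13.7 FPKM in EpiSCs and at 0.348 FPKM or below in long-term fPSCs. Pbx2 was at 41.5 and 42.5 FPKM in EpiSCs and from 30.5 to 47.0 in long-term fPSCs.

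Of 17 genes of the Cdx family and of retinoic acid supply, breakdown and response, 14 entered the fit. Between EpiSCs and mESCs 8 rose and 2 fell (23.1% and 24.7% of all genes), and between long-term fPSCs and EpiSCs none rose and 8 fell (13.3% and 19% of all genes). Between EpiLCs and mESCs 3 rose and 2 fell (12.2% and 17.4% of all genes), and between long-term fPSCs and mESCs 3 rose and 3 fell (17.3% and 23.0% of all genes), which is near those shares. The median change of the list was 1.37 on the log2 scale between EpiSCs and mESCs, beside -0.09 over all genes, and -1.26 between long-term fPSCs and EpiSCs, beside 0.02 over all genes. Cdx1, which activates Hox genes downstream of Wnt, was at 12.97 and 5.75 FPKM in mESCs, 0.538 in Epiblastoids on day 4 and 0.123 or below in the other libraries. Cdx2 was at 1.66 and 2.196 FPKM in EpiSCs and at 0.321 or below elsewhere. Rdh10, which makes the precursor of retinoic acid, was at 20.4 and 24.8 FPKM in EpiSCs and between 1.91 and 3.36 in long-term fPSCs. Cyp26a1, which breaks retinoic acid down, was listed at 0 in mESCs and EpiLCs, at 5.18 and 8.18 FPKM in EpiSCs, at 101 in Epiblastoids on day 4 and between 1.67 and 96.4 in long-term fPSCs, with the 46C line at the top. The fibroblast markers moved with both lists in EpiSCs: 14 of the 15 that entered fell between long-term fPSCs and EpiSCs. Many of them had entered the fit through the EpiSC libraries alone. The part of feeder cells in these differences was not tested.

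Genes of the primitive streak, where Hox expression starts in the embryo, summed to between 116 and 255 FPKM in long-term fPSCs. They summed to 89.3 and 123 FPKM in EpiSCs, to 24.1 FPKM in fPSCs P1 and to 46.7 and 56.4 FPKM in mESCs. Tbx6, Msgn1 and Wnt3a stayed below 1 FPKM in all 10 fPSC libraries. Of 13 such genes 10 entered the fit. Between long-term fPSCs and mESCs 8 rose and 1 fell (17.3% and 23.0% of all genes), with a median change of 2.81 on the log2 scale beside -0.04 over all genes. Between long-term fPSCs and EpiSCs 6 rose and none fell (13.3% and 19% of all genes), and between EpiSCs and mESCs 4 rose and 1 fell (23.1% and 24.7% of all genes). Between EpiLCs and mESCs 2 rose and 2 fell, near the shares of 12.2% and 17.4% over all genes. T was between 5.37 and 30.3 FPKM in long-term fPSCs, at 30.1 and 42.5 in EpiSCs and at 1.31 and 1.1004 in mESCs. Eomes was between 19.3 and 48.4 FPKM in long-term fPSCs, at 3.80 and 5.37 in EpiSCs and at 4.30 and 1.84 in mESCs.

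Inside the clusters the annotation holds 28 entries besides the Hox genes, 16 of which are in the table, and 2 of these reached 1 FPKM in any library. Mir196a-1, the gene of a microRNA that acts on Hox mRNAs, lies between Hoxb13 and Hoxb9 at chr11:96126478-96126579. It was at 13.8 and 17.5 FPKM in mESCs, 1.12 in Epiblastoids on day 3, 0.689 in fPSCs P1, and 0.542 or below in the other libraries. The entry is short, and an FPKM of so short an entry is less certain than that of a Hox mRNA. Mir196b, its relative in the HoxA cluster, was listed at 0 in all 19 libraries. The mature 5p microRNAs of both genes share their seed (bases 2 to 8, in capitals), as their sequences from RefSeq (GRCm38.p6) show.
mmu-miR-196a-5p: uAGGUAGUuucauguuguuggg
mmu-miR-196b-5p: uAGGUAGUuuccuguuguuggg

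Hotairm1, a noncoding RNA of the HoxA cluster, was at 3.92 and 1.41 FPKM in EpiSCs and at 0.493 or below in every other library. It is annotated on the plus strand at chr6:52106901-52112118. Whether reads were counted by strand is not given in the sources used here, so its reads and those of entries on the other strand cannot be told apart where they overlap.

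Some protein-coding genes beside the clusters were also highest in mESCs, and others were not. Evx1, a homeobox gene of the streak that lies beyond Hoxa13, was at 0.0728 FPKM or below in mESCs, EpiLCs and EpiSCs, at 29.3 in Epiblastoids on day 4, and between 0.839 and 6.72 in long-term fPSCs. Evx2, its relative beyond Hoxd13, was at 0.0171 FPKM or below in all 19 libraries. Calcoco2, beyond Hoxb13, was at 85.2 and 94.1 FPKM in mESCs and at 0.0534 or below in long-term fPSCs, and Ttll6, which lies between them, was at 1.54 FPKM in both mESC libraries and at 0.250 or below elsewhere. Skap2, on the side of the HoxA cluster away from Evx1, was at 16.9 and 17.3 FPKM in mESCs and between 1.13 and 2.61 in long-term fPSCs. Smug1 was at 6.60 and 7.11 FPKM in mESCs and at 3.60 or below elsewhere. Of all genes used, 11.1% were higher in both mESC libraries than in any other library. Snx10, Hibadh, Snx11, Calcoco1, Smug1, Cbx5, Lnpk, Mtx2 and Hnrnpa3 were above 1 FPKM in all 19 libraries, and Skap1 was below 1 FPKM in all of them. Gm17649, the nearest entry before Hoxc13, was not analysed here for expression.

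In the chromatin of fPSCs P10, H3K27me3 covered all Hox promoters. ChIP-seq was given as RPKM in bins of 100 bp, a bin not listed was read as 0, and 1 file per mark leaves no spread between replicates and no test. Averaged over 5000 bp to either side of the start, H3K27me3 ran from 3.61 to 6.53 RPKM over the 39 members, with a median of 5.38, where the median of all 22197 protein-coding promoters was 0.360 RPKM. Of the 39, 38 were among the top 1% of all promoters in these windows, and Hoxd1 was just outside, at a percentile of 98.7. With H3K27me3 averaged within 1000 bp, more members lay outside the top 1%. Among them were Hoxd8, Hoxd11 and Hoxb9 at percentiles of 91.5, 93.6 and 94.5. H3K4me3 ran from 1.26 to 3.73 RPKM with a median of 3.02, where that of all promoters was 1.07 RPKM. All 39 lay above this median, at percentiles from 55.5 to 96.6, in windows that take in neighbouring start sites. Within 1000 bp some members lay below the median of all promoters, among them Hoxd11, Hoxd8 and Hoxa10 at percentiles of 35.9, 41.3 and 41.5. For scale, 49 promoters of the Pax, Nkx, Lhx, Dlx, Irx and Six-type families, which are other developmental homeobox or paired genes, had medians of 3.66 RPKM for H3K27me3 and 3.26 RPKM for H3K4me3. Hox promoters of a cluster lie closer together than the windows are wide, so neighbouring members share bins and are not independent.

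In the HoxA cluster H3K27me3 was highest at Hoxa6 (6.24 RPKM), and H3K4me3 was highest at Hoxa5 (3.73) and lowest at Hoxa4 (1.27). In HoxB, H3K27me3 was highest at Hoxb13 (5.92 RPKM) and lowest at Hoxb1 (3.95), and H3K4me3 was highest at Hoxb6 (3.42) and lowest at Hoxb9 (2.05). In HoxC, H3K27me3 was highest at Hoxc10 (6.53 RPKM) and lowest at Hoxc9 (5.12), and H3K4me3 was highest at Hoxc6 (3.55) and lowest at Hoxc13 (1.88). In HoxD, H3K27me3 was highest at Hoxd3 (5.48 RPKM) and lowest at Hoxd1 (3.61), and Hoxd1 was also lowest in H3K4me3 (1.26), which was highest at Hoxd4 (3.35).

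A promoter counts as carrying both marks when its mean within 5000 bp has a z-score above 1 for each mark. Over all promoters this rule called 0 of the 39 Hox promoters and 15 of 22197 in all (0.0676%), because 17 promoters over 20 RPKM, the highest at 2540 RPKM of H3K4me3, set the SD and a z-score of 1 stood at 25.6 RPKM for H3K4me3 and 19.1 RPKM for H3K27me3. With those 17 left out, a choice made after seeing the data, a z-score of 1 stood at 2.41 and 1.36 RPKM. Then 27 of the 39 Hox promoters carried both marks, beside 2.29% of the 22180 promoters. All 39 were called for H3K27me3 (11.1% of all) and 27 for H3K4me3 (15.5% of all), so H3K4me3 decided the count. The promoters without the H3K4me3 call were those of Hoxa4, Hoxa10, Hoxa13, Hoxb4, Hoxb9, Hoxc8, Hoxc11, Hoxc13, Hoxd1, Hoxd8, Hoxd9 and Hoxd12. Both marks were called at 7 of 8 promoters of paralogues 1 to 3, 11 of 15 of paralogues 4 to 8 and 9 of 16 of paralogues 9 to 13, and at 37 of the 49 promoters of the comparison families. The count rested on the window: within 2500 bp 3 of the 39 carried both marks, with 312 promoters called in all, and within 1000 bp 0 did, with 113 called in all. Within 1000 bp the median H3K4me3 was 3.42 RPKM over Hox promoters and 2.36 over all promoters. Hoxd11, called for both marks within 5000 bp, was at 0.622 RPKM there.

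**Figure D3:**
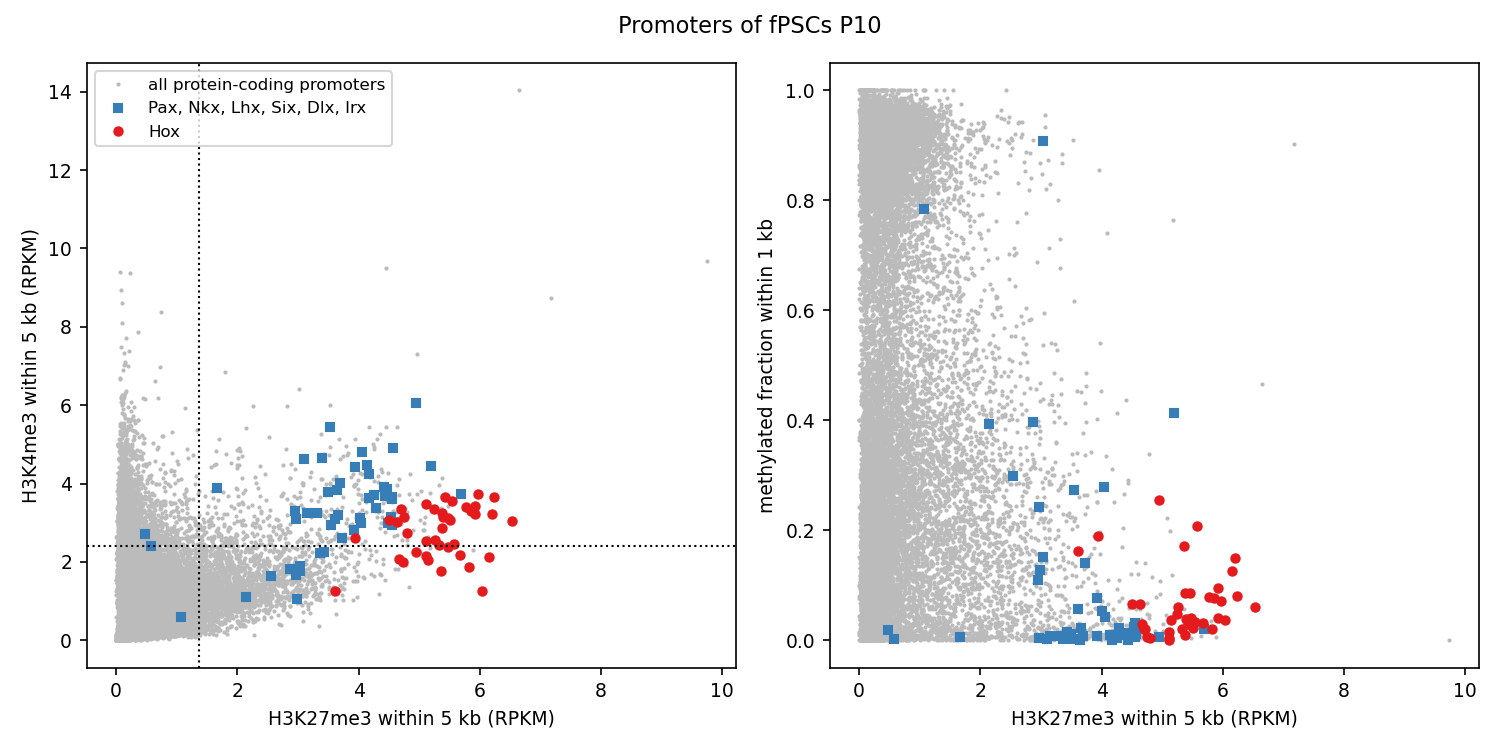
Each point is a protein-coding promoter in fPSCs P10 (grey), with the Pax, Nkx, Lhx, Dlx, Irx and Six-type families as blue squares and the Hox genes as red circles, and promoters over 20 RPKM left out. Left, H3K4me3 against H3K27me3 within 5 kb (RPKM), with dotted lines at the z-score of 1, 2.41 and 1.36 RPKM; right, methylated fraction within 1 kb against H3K27me3, where 37 of 39 Hox promoters lie at 0.2 or below.

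Hox promoters were hardly methylated in fPSCs P10. The mean methylated fraction of the windows within 1000 bp of the start site ran from 0 to 0.254 with a median of 0.0400, where the median was 0.399 over all promoters and 0.0143 over the comparison families. It was at 0.2 or below in 37 of 39 Hox promoters and in 31.3% of the 21917 promoters with a value. The coverage behind a window is not given, so no interval can be set. The highest and lowest fractions were at Hoxa9 (0.207) and Hoxa13 (0) in HoxA, at Hoxb4 (0.254) and Hoxb2 (0.00444) in HoxB, at Hoxc8 (0.126) and Hoxc9 (0.0144) in HoxC, and at Hoxd1 (0.162) and Hoxd13 (0.00500) in HoxD. The annotated start of Hoxb4 lies 2086 bp before its start codon, and around the start codon its fraction was 0.0542. For Hoxd3, with a start 4393 bp before the start codon, the fraction was 0.0400 at the start site and 0.495 around the start codon. Low methylation around the start sites, as a run of windows at 0.2 or below with gaps of up to 3 windows, had a median length of 2.2 kb over Hox genes, 0.5 kb over all promoters and 3.85 kb over the comparison families. The longest run was at Hoxa2 (6.7 kb).

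H3K27me3 spread over whole clusters rather than over start sites alone. The HoxA cluster lies at chr6:52105366-52210874, HoxB at chr11:96055630-96229570, HoxC at chr15:102751534-102867274 and HoxD at chr2:74506367-74603200 (mm9). Bins of 1 kb at or above 1.09 RPKM, the 95th percentile of the genome, and gaps of up to 2 bins formed 1 run over each cluster. The runs were 181 kb long at HoxA, 243 kb at HoxB, 239 kb at HoxC and 134 kb at HoxD, beside cluster spans of 105.5, 173.9, 115.7 and 96.8 kb, and between 98.1% and 100% of the bins of a cluster were above the limit. With the 99th percentile the longest runs were 136, 148, 207 and 129 kb, and with no gap allowed 68, 113, 214 and 66 kb. With no gap the longest run was shorter than the cluster at HoxA, HoxB and HoxD. At HoxB it was also shorter with the 99th percentile. An unbroken cover of these clusters thus rests on the limits, while at HoxC the run was longer than the cluster under each of them. Mean H3K27me3 inside was 5.66, 4.57, 5.78 and 4.91 RPKM in HoxA, HoxB, HoxC and HoxD, and between 0.686 and 3.34 RPKM in the 100 kb to either side. Mean H3K4me3 inside was between 2.05 and 2.69 RPKM, and between 0.391 and 1.36 in those flanks. The mean methylated fraction inside was 0.142, 0.329, 0.145 and 0.169, and between 0.634 and 0.892 in the flanks.

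**Figure D4:**
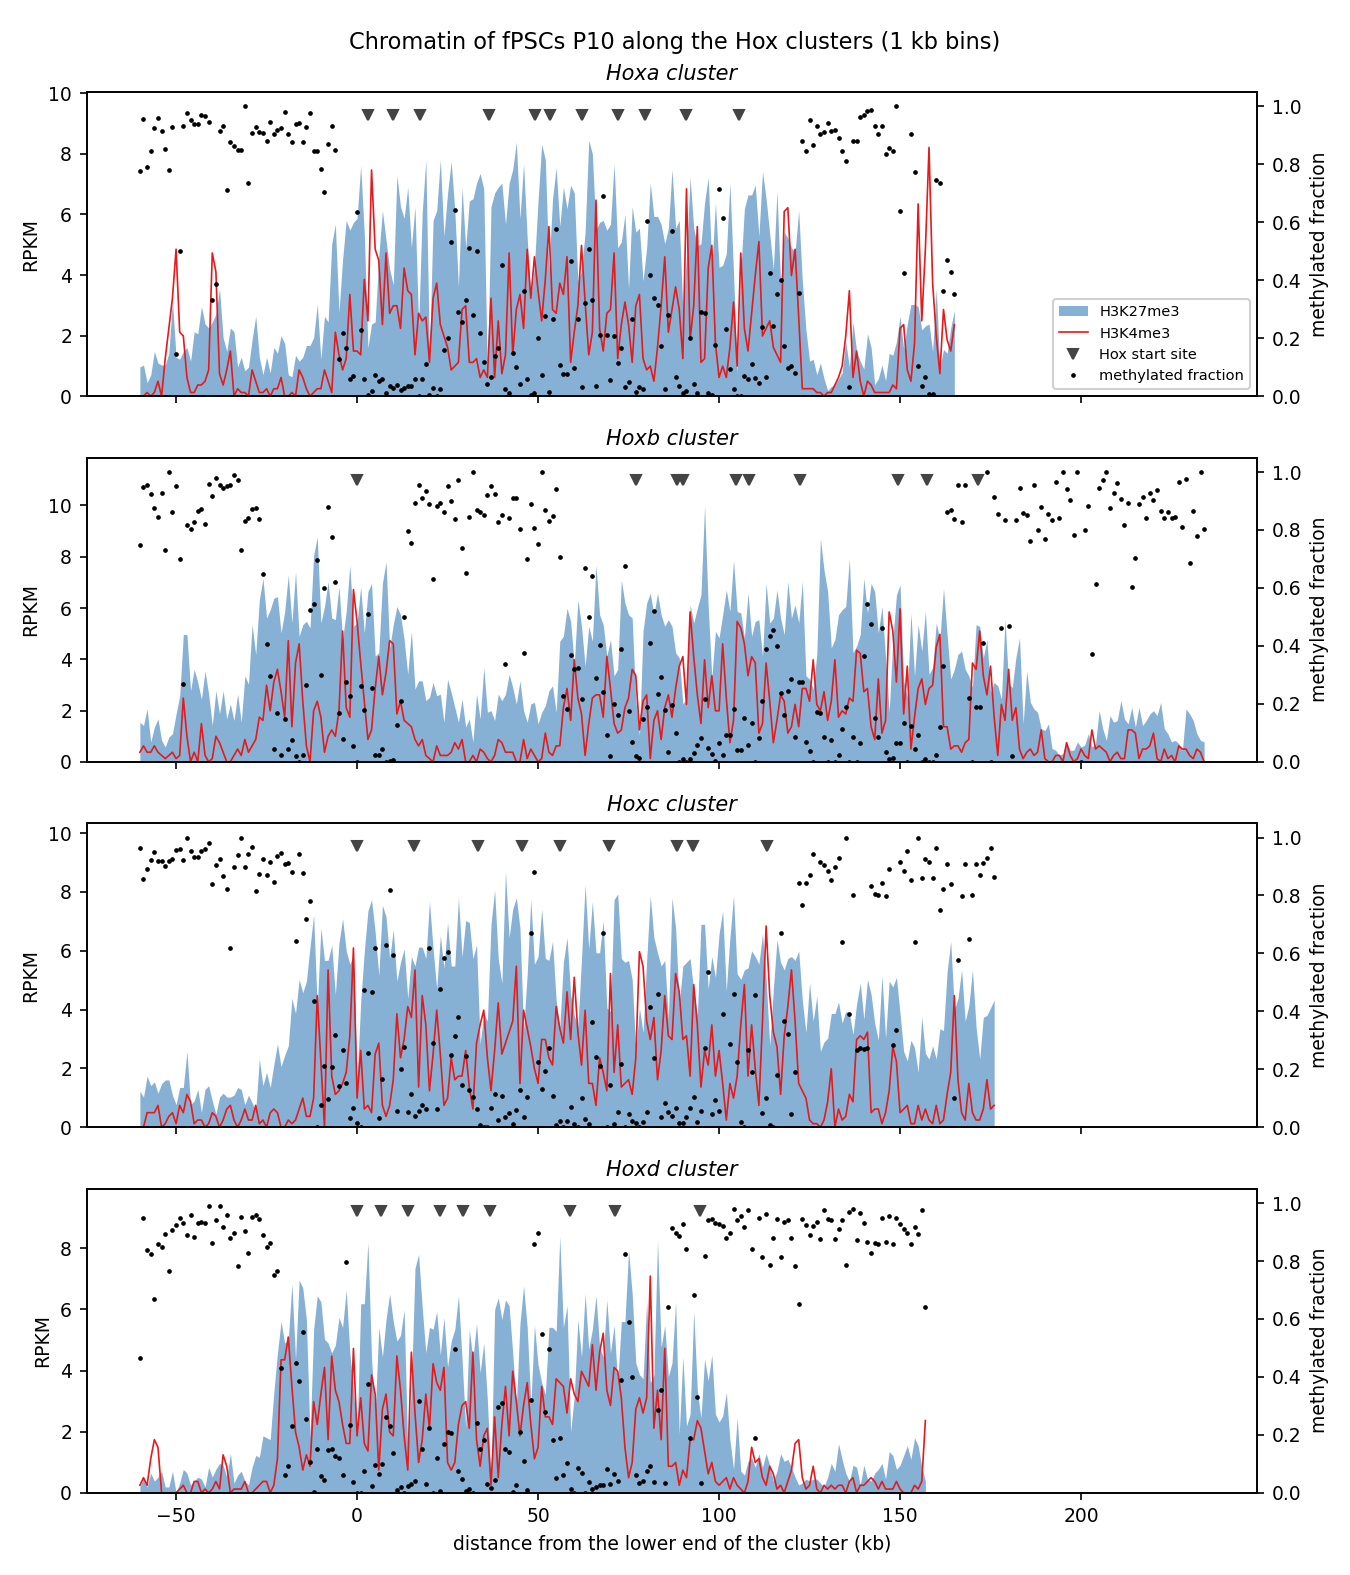
H3K27me3 (blue, RPKM), H3K4me3 (red line, RPKM) and methylated fraction (black points, right axis) in 1 kb bins of fPSCs P10, along each Hox cluster and 60 kb to either side, by distance from the lower end of the cluster in kb. Triangles are Hox start sites. H3K27me3 is raised and methylation low across each cluster, with mean fractions of 0.142 to 0.329 inside and 0.634 to 0.892 in the 100 kb beside it.

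The runs of H3K27me3 ended before most neighbours, but took in Gm17649 and Evx2 and reached into Ttll6. Gm17649, 0.3 kb from the HoxC cluster, carried 5.80 RPKM of H3K27me3 at its promoter. Evx2, 8.4 kb beyond Hoxd13, was covered like a member, with 5.07 RPKM of H3K27me3 and 2.81 of H3K4me3 at its promoter. Evx1, 52.6 kb beyond Hoxa13 and expressed in long-term fPSCs, carried 2.24 RPKM of H3K27me3, 3.46 of H3K4me3 and a methylated fraction of 0.0256. The promoter of Skap2 had 0.386 RPKM of H3K27me3, that of Hnrnpa3 0.250 and that of Cbx5 0.0386. Ttll6 and Calcoco2, beside Hoxb13, had 1.49 and 1.21 RPKM of H3K27me3 and methylated fractions of 0.672 and 0.726.

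Single fPSCs held few Hox counts. The labels give 192 picked cells, and the 2 tables hold 182 of them (46, 46, 46 and 44 from clones 1 to 4), with 1 cell name listed again. Only genes kept in the tables can be counted, 5 Hox genes in the table of clones 1 and 2 and 7 in that of clones 3 and 4. Together 12 Hox genes had a count, in 14 of the 182 cells, with 83 of 11906058 counts. By clone this was 3, 62, 10 and 8 Hox counts. Of the 16 pairs of gene and cell, 10 had 1 count, and 3 pairs held all 62 counts of clone 2: Hoxc4 had 31 in 1 cell, and Hoxd1 and Hoxa2 had 20 and 11 in another. Cells of a clone are not replicates, and the clones were not compared by a test. The median cell had between 19078 and 33883 counts by clone. Actb was counted in 43 to 46 cells of each clone and Otx2 in 26 to 34, but Pou5f1, at 226 FPKM or more in all 19 bulk libraries, in 1 to 9 cells, so a gene without a count in these tables is no sign that its RNA was absent.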

How the data were processed

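The authors trimmed bulk RNA reads with cutadapt 1.11, aligned them with TopHat2 2.1.1 to Ensembl cDNA (mm9) and deposited FPKM from Cufflinks 2.1.1, a unit in which depth and transcript length are divided out. ChIP-seq reads were aligned to mm9 with Bowtie2 2.2.2. The deposited values are RPKM per 100 bp bin, and bins absent from a file were read as 0. The methods say that replicates were integrated, and the files do not say which they hold. Methylation made with BS-Seeker2 was deposited by the authors as a methylated fraction per 100 bp window, without coverage. For Smart-seq2 cells the deposited tables hold unnormalized counts by gene. A list of primers was not used.

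From the FPKM, log2(FPKM + 1) was tested with limma 3.58.1 (trend) in R 4.3.3. FPKM hold no reads, so no count test was run. Of 23608 entries, 4 with a repeated name were left out. In simulated data with 200 of 12513 genes changed by 1.5 on the log2 scale, 67.5% were recovered for EpiSCs versus mESCs. Replicate numbers did not pair the libraries, so they were no block. Python 3.11.15 was used for the other steps. Start sites were taken, from a gene annotation of NCBIM37 (mm9), as the start of the near-full-length coding transcript that begins closest to its start codon.

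Results of 1 member are not reported here by name, though counts and sums include it. The members and lists were chosen with earlier results of these data known. Members at 1 FPKM or more in any library or past the threshold are named, with the extreme promoters of each cluster, the nearest 2 protein-coding neighbours per side and noncoding entries at 1 FPKM or more. Alternatives were another pseudocount, no filter, upper-quartile scaling, only the groups compared, the block, each replicate left out, 1 library protocol, and other windows and limits for chromatin. Leaving out promoters over 20 RPKM, the gene start and the start codon as centres, and the 3-group fit without the block were chosen after seeing the data.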

Additional observations from a re-analysis of the deposited data

Results flagged for a closer look

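The summed Hox level and single entries of the clusters were checked over the 7 long-term fPSC libraries. Only values that reached 0.1 FPKM in one of these were taken. Among the 6 checked, Mir196a-1 had 1 library far from the others. It was at 0.374 FPKM in fPSCs P30, where the next highest library was at 0.0756 and the other 5 were listed at 0. For normally distributed values chance sets a library apart in about 1 of 20 groups, a rate that need not hold where most values are 0.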

How the results depend on the processing

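The calls for Hox genes kept their number with a pseudocount of 0.1, with upper-quartile scaling and with the fPSC libraries of 1 protocol. With only the groups compared, the count against mESCs was 4 for long-term fPSCs in place of 5, since 1 member then failed the filter, and the other counts were the same. The adjusted p of limma was larger there. For Hoxb13 against mESCs it was 1.58e-04 in EpiSCs, 0.00111 in EpiLCs and 4.71e-08 in long-term fPSCs. With the replicate number as a block over mESCs, EpiLCs and EpiSCs, 6 members were called for EpiSCs and 4 for EpiLCs, the same counts as without it, but the numbers do not pair the libraries: the correlations of deviations were 0.204, -0.199 and -0.134. With no filter on low values 14 (EpiSCs versus mESCs), 11 (EpiLCs versus mESCs), 12 (long-term fPSCs versus mESCs) and 4 (long-term fPSCs versus EpiSCs) of 39 members were called, because more members were then tested. With each replicate left out in turn the counts ran from 2 to 5, from 0 to 4, from 1 to 5 and from 1 to 2 in the same order, and the low values come from members that failed the filter. A member that failed the filter under an alternative gave no value. This leaves out Hoxb13, Hoxc4, Hoxc12 and Hoxc13 with an mESC library left out, and Hoxa2 with an EpiSC library left out. Of 264 values of single tested members under the alternatives, 262 kept their side of the threshold and did not change sign, 3 of these with a change of 0. Another value crossed the threshold, and Hoxa2 in EpiLCs, which was not called, turned from 0.01 to -0.046 without EpiLCs replicate 1 and was 0.0675 without EpiLCs replicate 2.

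Hox promoters with both marks numbered 27 with promoters over 20 RPKM left out, 3 within 2500 bp, and 25 from the gene start, and 0 under the other settings. The median methylated fraction of 0.0400 was 0.0330 within 500 bp, 0.129 within 5000 bp, 0.0607 at the gene start and 0.0450 around the start codon. The median low-methylation stretch of 2.2 kb was 0.9 kb at 0.1 or below and 0.7 kb with no gap. The median cover of a cluster by H3K27me3 was 142 kb at the 99th percentile and 90.5 kb with no gap. No depth is known for FPKM or methylation, which limits every low value.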

Other observations

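The interval between Hoxb13 and Hoxb9 (chr11:96058762-96132770, mm9), 74.0 kb long and chosen after the cluster profile was seen, differed from the rest of the HoxB cluster in fPSCs P10. Its mean methylated fraction was 0.543 and its mean H3K27me3 3.67 RPKM, where the stretch from Hoxb9 to Hoxb1 had 0.176 and 5.21 RPKM. Mean H3K4me3 was 1.29 RPKM in the interval and 2.60 in that stretch. Around the start of Mir196a-1, at the Hoxb9 end of the interval, the methylated fraction was 0.108 and H3K27me3 4.22 RPKM.

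Members of the Pax, Nkx, Lhx, Dlx, Irx and Six-type families, 58 of which are in the table, reached 1 FPKM in 16 and 15 genes in EpiSCs, in 8 genes in each mESC library and in 4 to 8 genes in the 10 fPSC libraries, where no Hox gene did. Their shares were 27.6% and 25.9% in EpiSCs, 13.8% in each mESC library and 6.90% to 13.8% in fPSCs. Those of the 39 Hox genes were 5.13% and 7.69% in EpiSCs and 20.5% and 12.8% in mESCs. Over all genes, between 42.5% and 46.3% reached 1 FPKM per library.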
